A study of Mus musculus with 2 samples.

Results

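The 39 genes described here are known in the mouse to answer to interferons, the signalling proteins that cells release on infection and in inflammation. The rule takes them by symbol and uses no measured value. They come from the 55353 gene symbols of single-cell counts of inflamed mouse skin and were grouped by role. The group that leans to type I interferon holds 9 genes (Ifit1, Ifit2, Ifit3, Ifit3b, Oas1a, Oas3, Oasl1, Oasl2 and Mx1). The group that leans to interferon-gamma holds 6 (Gbp2, Gbp3, Gbp7, Igtp, Iigp1 and Irgm1). A further 4 are transcription factors (Irf1, Irf7, Irf9 and Stat2) and 4 are sensors of foreign nucleic acid (Ifih1, Ddx58, Zbp1 and Ifi204). The other 16 are effectors and regulators (Isg15, Rsad2, Usp18, Ifi44, Ifi27l2a, Bst2, Rtp4, Xaf1, Cmpk2, Ifi47, Parp14, Parp9, Dtx3l, Trim30a, Slfn2 and Slfn4).

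The study profiled 3′ transcripts of single cells of back skin from C57BL/6 mice, 7 weeks of age. Mice of one group received Shi-Bi-Man, a natural product, and imiquimod, and those of the other received imiquimod alone. Imiquimod is an agonist of Toll-like receptor 7 that causes psoriasis-like inflammation and is itself known to induce type I interferon, and skin without it was not analysed here. The title of the series names the IL-23/Th17 axis and activation of endothelium through CXCL16 as its subject. In the text below, "with Shi-Bi-Man" always means Shi-Bi-Man plus imiquimod. Each group was 1 library, and the number of mice behind it is not given in the sources used here. No test between groups was therefore possible, and every interval below is a 95% interval that covers counting error only. Ratios are log2 of the level with Shi-Bi-Man over the level with imiquimod alone, so that a positive value means higher with Shi-Bi-Man, and the pair of numbers after a ratio bounds its interval.

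The libraries held 20837259 counts in 8054 cell barcodes with Shi-Bi-Man and 28920316 counts in 11316 with imiquimod alone. After filtering, 7863 cells with Shi-Bi-Man and 11019 with imiquimod alone remained, at medians of 1780 and 1616 counts in that order. The libraries had 49 cell barcodes in common, of which 46 passed the filters in both. Cells were grouped without the 39 genes or other interferon pathway genes, and each group was named from marker genes, with the ending -like because only RNA markers name it. Of 14 classes, 9 held at least 100 cells in each library and were compared. No cluster was named neutrophil-like, dendritic cell-like or plasmacytoid dendritic cell-like, so the cells best known for making type I interferon had no class of their own. In each class, fewer cells that respond and less RNA per responding cell give the same summed level, and shares of cells are given further on.

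Of the 39 genes, 37 had at least 20 counts over all cells. Igtp had 1 count with Shi-Bi-Man and 0 with imiquimod alone, and Ifi47 had 0 in both. In the GENCODE vM21 annotation, Irgm2 covers 99.2% of Igtp and Olfr56 covers all of Ifi47, each on the same strand. Irgm2 had 242 counts with Shi-Bi-Man and 244 with imiquimod alone, and Olfr56 had 172 and 248 in the same order. The genes Ifit2, Ifit3, Ifit3b and Ifit1 lie together on chromosome 19 of GRCm38, from 34550694 to 34650009, and Gbp7, Gbp3 and Gbp2 on chromosome 3, from 142530342 to 142638008. How the counting program treated reads in the overlaps with Irgm2 and Olfr56 is not given in the sources used here, so the near absence of counts does not show that Igtp and Ifi47 were not expressed.

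Type I interferons, such as interferon-alpha and interferon-beta, act through a complex that contains STAT2 and IRF9 and binds an element called ISRE in the promoters of genes such as Ifit1, Oas1a and Mx1. Interferon-gamma, made mainly by T and NK cells, acts through an element called GAS, and it induces IRF1, which then binds ISRE-like elements in genes of guanylate-binding proteins and immunity-related GTPases. The programmes overlap widely, which is why a gene is said only to lean to one or the other. Both have been described in psoriatic skin, and endothelial cells and macrophages are known to respond to interferon-gamma.

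RefSeq promoters of GRCm38.p6, running from 250 bases before to 50 bases after the start site, were found for 30 of the 39 genes. An ISRE core, GAAANNGAAA on either strand, was present in 17 of the 30 (56.7%), against 1079 of all 27025 genes with a promoter (3.99%). All 5 interferon-gamma leaning genes with a promoter held it, as did 5 of 8 type I leaning genes, so the letters of this core did not separate the groups. The GAS core TTCNNNGAA, which reads the same on both strands, was present in 6 of the 30 (20%), against 9.55% of all genes. Matches of the ISRE core can overlap one another. The 120 bases before the start site are printed for genes on which the results below turn, with every match of either core in capitals. The first 3 lean to interferon-gamma, Ifit1 and Isg15 are induced strongly by type I interferon, and Irf1 is the factor of the interferon-gamma pathway whose window holds a GAS core.
Gbp2, chr3:142620543-142620662, plus strand: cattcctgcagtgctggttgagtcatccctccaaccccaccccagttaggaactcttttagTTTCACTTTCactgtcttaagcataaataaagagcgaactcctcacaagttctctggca
Gbp3, chr3:142559924-142560043, plus strand, the first start site: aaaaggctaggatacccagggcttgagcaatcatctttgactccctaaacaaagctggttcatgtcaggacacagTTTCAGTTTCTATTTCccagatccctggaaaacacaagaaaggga
Irgm1, chr11:48871421-48871540, minus strand: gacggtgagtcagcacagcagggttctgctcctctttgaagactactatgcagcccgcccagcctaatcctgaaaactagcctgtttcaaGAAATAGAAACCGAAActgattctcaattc
Ifit1, chr19:34640769-34640888, plus strand: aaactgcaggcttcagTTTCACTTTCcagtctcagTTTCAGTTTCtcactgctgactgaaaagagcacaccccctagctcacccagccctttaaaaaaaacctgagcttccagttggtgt
Isg15, chr4:156200819-156200938, minus strand: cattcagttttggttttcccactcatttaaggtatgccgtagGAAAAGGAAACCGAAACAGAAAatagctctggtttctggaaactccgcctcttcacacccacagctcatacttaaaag
Irf1, chr11:53769894-53770013, plus strand, the first start site: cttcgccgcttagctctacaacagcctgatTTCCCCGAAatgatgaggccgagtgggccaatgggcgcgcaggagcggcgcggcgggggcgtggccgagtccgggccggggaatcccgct
In these windows Ifit1 had 2 ISRE matches, Isg15 had 3 that overlap, Gbp2 had 1, Gbp3 and Irgm1 had 2 each that overlap, and Irf1 had 0 ISRE matches and 1 GAS match. A match describes letters in the window and does not show that a factor binds there.

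Blood endothelial-like cells held the highest level of both groups of genes in both libraries. The summed level of the 9 type I leaning genes, scaled to the class total and given as CPM, the counts of a gene per 1000000 counts, was 992 CPM with Shi-Bi-Man and 441 CPM with imiquimod alone in these cells. Macrophage-like cells, a class named from markers of macrophages and monocytes, came next at 264 CPM with Shi-Bi-Man and 272 CPM with imiquimod alone. Sebaceous gland-like cells were lowest, at 7.18 CPM with Shi-Bi-Man and 5.23 CPM with imiquimod alone. The summed level of the 6 interferon-gamma leaning genes was 3936 CPM with Shi-Bi-Man and 2506 CPM with imiquimod alone in blood endothelial-like cells. Lymphatic endothelial-like cells came next, at 2073 CPM with Shi-Bi-Man and 1128 CPM with imiquimod alone, and sebaceous gland-like cells were again lowest, at 21.5 CPM with Shi-Bi-Man and 12.9 CPM with imiquimod alone. In neither library did the intervals of the highest class and the next overlap for either sum. No class is known to lack these genes, so the part of the low levels that comes from free RNA could not be told apart from expression.

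Single genes differed in where they were highest. Iigp1, an immunity-related GTPase that attacks the vacuoles of intracellular parasites, was highest in blood endothelial-like cells, at 2643 CPM with Shi-Bi-Man and 1639 CPM with imiquimod alone, and next in lymphatic endothelial-like cells, at 1227 CPM with Shi-Bi-Man and 626 CPM with imiquimod alone. Irgm1, a regulator of such GTPases, had the same order, and in neither library did the intervals of these classes overlap for either gene. Gbp7, a guanylate-binding protein, was at similar levels in the endothelial classes, with intervals that overlap: 214 CPM with Shi-Bi-Man and 149 CPM with imiquimod alone in blood and 179.8 CPM with Shi-Bi-Man and 147 CPM with imiquimod alone in lymphatic endothelial-like cells. Oasl1, known in the mouse to limit translation of Irf7, was instead highest in macrophage-like cells, at 94.4 CPM with Shi-Bi-Man and 123 CPM with imiquimod alone, with blood endothelial-like cells next. Ifi27l2a, a small interferon-induced protein, was also highest in macrophage-like cells, at 372 CPM with Shi-Bi-Man and 421 CPM with imiquimod alone. The DNA sensor Ifi204, of the murine p200 family, was highest in different classes of the libraries, in macrophage-like cells with Shi-Bi-Man, at 218 CPM, and in fibroblast-like cells with imiquimod alone, at 239 CPM. Trim30a, a restraint on Toll-like receptor signalling, was present throughout, from 106 to 266 CPM over the classes with Shi-Bi-Man and from 91.6 to 207 CPM with imiquimod alone.

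**Figure D1:**
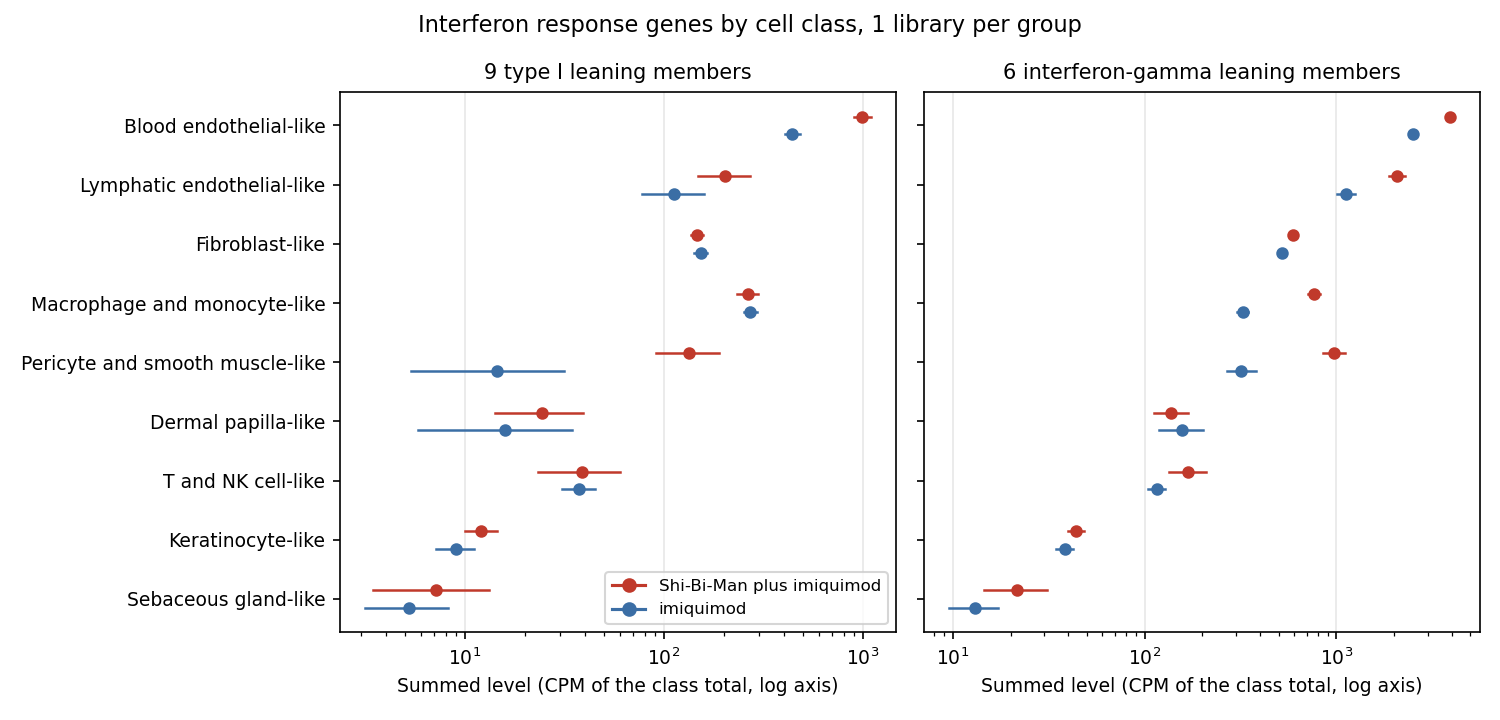
Summed level in CPM of the class total, on a log axis, of the 9 type I leaning genes (left) and the 6 interferon-gamma leaning genes (right) in 9 cell classes, 1 library per group. Points are summed levels and lines exact Poisson 95% intervals. Blood endothelial-like cells lie furthest right in both panels, and their type I sum stands at 992 CPM with Shi-Bi-Man and 441 CPM with imiquimod alone.

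Over all retained cells the treatments differed little in the type I sum, at 83.6 CPM with Shi-Bi-Man and 81.3 CPM with imiquimod alone, a log2 ratio of 0.04 with an interval that spans 0 (-0.05 to 0.13). The interferon-gamma sum was 338 CPM with Shi-Bi-Man and 272 CPM with imiquimod alone (0.31, 0.27 to 0.36). Within classes, the type I sum was higher with Shi-Bi-Man beyond counting error in 4 of 9, lower in 0, and its interval spanned 0 in 5. Among these 4, the lymphatic endothelial-like class rested on 45 counts with Shi-Bi-Man and 33 with imiquimod alone. The pericyte and smooth muscle-like class rested on 32 and 6 in that order, and the keratinocyte-like ratio fell to -0.11 under an alternative given below. Of 18 clusters compared, the type I sum was higher in 8 and lower in 2. The interferon-gamma sum was higher beyond counting error in 7 of 9, lower in 0, and its interval spanned 0 in dermal papilla-like and keratinocyte-like cells. One of the 7, the sebaceous gland-like class, rested on 30 counts with Shi-Bi-Man and 47 with imiquimod alone. Counted over all cells, 0 of 37 measured members were higher by more than 1.5-fold and 4 were lower, where 15% of all genes measured were higher and 13.7% lower. The 4 were Oasl1 (-1.06), Slfn2 (-1.01), Oas1a (-0.70) and Ifi27l2a (-0.63). Levels over all cells mix levels within classes with the make-up of a library. Macrophage-like cells, for example, were 9.67% of the cells with Shi-Bi-Man and 14.2% with imiquimod alone, and T and NK cell-like cells were 6.50% with Shi-Bi-Man and 22.9% with imiquimod alone. The classes are therefore given one by one.

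In blood endothelial-like cells (247 with Shi-Bi-Man and 502 with imiquimod alone), interferon response genes were mostly higher with Shi-Bi-Man. Above 0 were 31 of 35 measured members, against 3730 of all 7892 genes measured in the class. The type I sum had a log2 ratio of 1.17 (0.98 to 1.36) and the interferon-gamma sum 0.65 (0.56 to 0.74). Of the 35 members, 14 were higher by more than 1.5-fold and 2 lower, with a median log2 ratio of 0.55, where 13.6% of all genes measured in the class were higher and 18.7% lower and the median was -0.04. The 7 measured type I leaning genes had 3 higher and 1 lower, with a median of 0.57. The 5 measured interferon-gamma leaning genes had 3 higher and 0 lower, with a median of 0.68. Ifit1 held a large part of the type I sum, and the sum without it was not computed. Slfn4, a Schlafen protein known from myeloid cells, had the highest ratio, at 109 CPM with Shi-Bi-Man and 23.4 CPM with imiquimod alone (2.22, 1.51 to 2.96). Ifit1, which binds viral RNA that lacks the host cap, stood at 529 CPM with Shi-Bi-Man and 159 CPM with imiquimod alone (1.74, 1.45 to 2.03). Its relative Ifit3 stood at 206 CPM with Shi-Bi-Man and 81.8 CPM with imiquimod alone (1.34, 0.90 to 1.77). Ifit3 and its near-identical copy Ifit3b may share reads, so single values of either are uncertain. Isg15, a ubiquitin-like protein attached to other proteins in the antiviral state, stood at 585 CPM with Shi-Bi-Man and 244 CPM with imiquimod alone (1.26, 1.01 to 1.51). Each of these 4 genes was thus higher with Shi-Bi-Man by more than its counting error.

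Transcription factors and sensors of the class had smaller ratios than the 4 genes above, with medians of 0.36 over 4 factors and 0.61 over 4 sensors. Irf1, the factor whose window carries the GAS match above, stood at 495 CPM with Shi-Bi-Man and 255 CPM with imiquimod alone (0.96, 0.69 to 1.22). Ddx58, the RNA sensor RIG-I, stood at 104 CPM with Shi-Bi-Man and 63.4 CPM with imiquimod alone (0.73, 0.14 to 1.28). Among the other effectors and regulators, Parp14, an ADP-ribosyltransferase, stood at 204 CPM with Shi-Bi-Man and 94.3 CPM with imiquimod alone (1.11, 0.69 to 1.53). The 5 measured interferon-gamma leaning genes lay close together, between 0.49 for Irgm1 (0.26 to 0.73) and 0.70 for Gbp2 (0.40 to 0.98), a guanylate-binding protein that coats vacuoles of intracellular bacteria. Both lower members rested on few counts. Oas1a, which makes the messenger that activates RNase L, had 3 counts with Shi-Bi-Man and 29 with imiquimod alone (-1.53, -4.09 to -0.04), and Ifi27l2a had 8 counts with Shi-Bi-Man and 62 with imiquimod alone (-1.34, -2.69 to -0.35). Oasl1 (-0.13) and Bst2, the tether that holds budding virions at the cell surface (-0.06), were next, with intervals that span 0.

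The type I counts of blood endothelial-like cells were less concentrated in a few cells with Shi-Bi-Man. The 5% of cells with most counts held 41.8% of them with Shi-Bi-Man and 58.2% with imiquimod alone. For the interferon-gamma counts these shares were 22.9% with Shi-Bi-Man and 21.7% with imiquimod alone. Cells were not thinned for these shares, and the type I counts were 409 in 247 cells with Shi-Bi-Man and 529 in 502 with imiquimod alone. The part of depth and of the summed level in the shares was not tested. Of 20 marker lists of other cells, 11 were lower with Shi-Bi-Man beyond counting error in the class and 5 higher. The 15 markers of T and NK cells summed to 255 CPM with Shi-Bi-Man and 778 CPM with imiquimod alone, the 16 of macrophages to 379 CPM with Shi-Bi-Man and 511 CPM with imiquimod alone and the 7 of Langerhans cells to 1194 CPM with Shi-Bi-Man and 2666 CPM with imiquimod alone. The 6 erythroid markers summed to 53.4 CPM with Shi-Bi-Man and 944 CPM with imiquimod alone, and the 9 of plasmacytoid dendritic cells, which were higher, to 1827 CPM with Shi-Bi-Man and 1563 CPM with imiquimod alone. The part of these differences in the ratios was not tested.

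Lymphatic endothelial-like cells (165 with Shi-Bi-Man and 154 with imiquimod alone) showed the same direction in the interferon-gamma group. That sum had a log2 ratio of 0.88 (0.67 to 1.09). The type I sum, on 45 counts with Shi-Bi-Man and 33 with imiquimod alone, was 0.84 (0.16 to 1.54), and 1 cell held 16 of those counts with Shi-Bi-Man. Of 15 measured members, 5 were higher and 1 lower by more than 1.5-fold, where 18.3% of all genes measured were higher and 13.3% lower. Gbp3, a guanylate-binding protein, stood at 148 CPM with Shi-Bi-Man and 30.8 CPM with imiquimod alone, on 33 counts with Shi-Bi-Man and 9 with imiquimod alone (2.21, 1.17 to 3.52). Iigp1 (0.97, 0.70 to 1.25), Irgm1 (0.93, 0.40 to 1.48) and Irf1 (0.65, 0.14 to 1.17) followed, and 3 of these 4 highest members lean to interferon-gamma. The lowest were Ifi27l2a at 157 CPM with Shi-Bi-Man and 239 CPM with imiquimod alone (-0.59, -1.23 to 0.00), Ifit1 (-0.29, -1.30 to 0.65), Xaf1, a pro-apoptotic antagonist of XIAP (-0.03, -1.15 to 1.03), and Trim30a (0.08, -0.60 to 0.74). Fibroblast markers summed to 10566 CPM with Shi-Bi-Man and 3100 CPM with imiquimod alone in this class, and their part in the ratios was not tested.

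Pericyte and smooth muscle-like cells (190 with Shi-Bi-Man and 227 with imiquimod alone) had the largest ratios of both sums among the 9 classes. The type I sum was 133 CPM with Shi-Bi-Man and 14.5 CPM with imiquimod alone, on 32 counts with Shi-Bi-Man and 6 with imiquimod alone (3.11, 1.92 to 4.75), and the interferon-gamma sum was 971 CPM with Shi-Bi-Man and 319 CPM with imiquimod alone (1.60, 1.29 to 1.92). Of 13 measured members, 9 were higher and 0 lower by more than 1.5-fold, where 14.7% of all genes measured were higher and 16.2% lower, and the median was 0.92. Ifit1 had 19 counts with Shi-Bi-Man and 1 with imiquimod alone (4.49, 2.38 to 10.41). Gbp2 stood at 304 CPM with Shi-Bi-Man and 58.1 CPM with imiquimod alone (2.37, 1.71 to 3.12) and Iigp1 at 359 CPM with Shi-Bi-Man and 94.4 CPM with imiquimod alone (1.92, 1.36 to 2.51), while Gbp7, on 14 counts with Shi-Bi-Man and 10 with imiquimod alone, had an interval that reaches 0 (1.25, 0.00 to 2.60). The lowest were Bst2 (-0.35), Irf9, the DNA-binding partner of STAT2 (-0.26), Irf1 (0.21) and Parp9, a partner of the ubiquitin ligase Dtx3l (0.33), all with intervals that span 0. With Shi-Bi-Man, a single cell held 40 of the 233 interferon-gamma counts. Without the cell with most counts in each library, an alternative chosen after seeing the data, that ratio was 1.41. Of 20 marker lists of other cells, 8 were lower and 6 higher beyond counting error in the class. Fibroblast markers summed to 4544 CPM with Shi-Bi-Man and 9077 CPM with imiquimod alone, macrophage markers to 158 CPM with Shi-Bi-Man and 435 CPM with imiquimod alone and Langerhans cell markers to 1001 CPM with Shi-Bi-Man and 3102 CPM with imiquimod alone. Blood endothelial markers summed to 404 CPM with Shi-Bi-Man and 450.0 CPM with imiquimod alone, and the part of any of these in the ratios was not tested.

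In macrophage-like cells (760 with Shi-Bi-Man and 1566 with imiquimod alone) the sums of the 2 groups of genes parted. The interferon-gamma sum was 763 CPM with Shi-Bi-Man and 325 CPM with imiquimod alone (1.23, 1.09 to 1.37), while the type I sum, at 264 CPM with Shi-Bi-Man and 272 CPM with imiquimod alone, had an interval that spans 0 (-0.04, -0.25 to 0.16). Of 37 measured members, 14 were higher and 1 lower by more than 1.5-fold, where 13.8% of all genes measured were higher and 11.7% lower, and the median was 0.47 over the members and 0.02 over all genes. The 9 type I leaning genes had 3 higher and 1 lower, with a median of 0.44. The 5 measured interferon-gamma leaning genes had 4 higher and 0 lower, with a median of 0.87. Oasl1 held a large part of the type I sum, and the sum without it was not computed. Gbp2 stood at 209 CPM with Shi-Bi-Man and 59.4 CPM with imiquimod alone (1.81, 1.52 to 2.12) and Iigp1 at 216 CPM with Shi-Bi-Man and 68.8 CPM with imiquimod alone (1.65, 1.36 to 1.94), so both were higher with Shi-Bi-Man well beyond counting error. Oas3, an enzyme of the same kind as Oas1a, had 12 counts with Shi-Bi-Man and 9 with imiquimod alone (1.70, 0.35 to 3.15). Mx1, a gene of the dynamin-like GTPases, had 19 counts with Shi-Bi-Man and 16 with imiquimod alone (1.55, 0.52 to 2.61). Zbp1, a sensor of Z-form nucleic acid that can trigger necroptosis (1.01, 0.50 to 1.52), and the factors Stat2 (0.96, 0.49 to 1.41) and Irf1 (0.95, 0.68 to 1.21) were also higher. Ifit1 was the one lower member, at 15.7 CPM with Shi-Bi-Man and 33.3 CPM with imiquimod alone (-1.05, -1.92 to -0.32). Ifit3 (-0.52, -1.32 to 0.16), Oasl1 (-0.37, -0.71 to -0.05) and Ifi27l2a (-0.18, -0.35 to -0.01) were the next lowest.

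The class had 2 clusters, whose type I sums went opposite ways and whose interferon-gamma sums went the same way. In the cluster led by Sirpb1c, Mpeg1 and Lyz1 (467 cells with Shi-Bi-Man and 1060 with imiquimod alone), the type I sum was 144 CPM with Shi-Bi-Man and 95.6 CPM with imiquimod alone (0.59, 0.22 to 0.96) and the interferon-gamma sum 465 CPM with Shi-Bi-Man and 211 CPM with imiquimod alone (1.14, 0.92 to 1.36). In the cluster led by Cd209f (293 cells with Shi-Bi-Man and 506 with imiquimod alone), whose leading genes Cd163, Folr2 and Timd4 mark resident tissue macrophages, the type I sum was 456 CPM with Shi-Bi-Man and 675 CPM with imiquimod alone (-0.56, -0.81 to -0.32) and the interferon-gamma sum 1243 CPM with Shi-Bi-Man and 588 CPM with imiquimod alone (1.08, 0.90 to 1.26). The intervals of the 2 type I ratios do not overlap. In the Cd209f cluster Oasl1 was at 138 CPM with Shi-Bi-Man and 341 CPM with imiquimod alone (-1.30, -1.75 to -0.89) and Ifit1 at 29.0 CPM with Shi-Bi-Man and 92.3 CPM with imiquimod alone (-1.62, -2.69 to -0.78), both lower with Shi-Bi-Man. Oasl1 thus held much of the type I sum of this cluster and most of its difference between libraries. The sum without Oasl1 was not computed. Gbp2 in the same cells was at 261 CPM with Shi-Bi-Man and 67.7 CPM with imiquimod alone (1.94, 1.46 to 2.44) and Iigp1 at 435 CPM with Shi-Bi-Man and 177 CPM with imiquimod alone (1.29, 0.97 to 1.62), both higher. In the Sirpb1c cluster Oasl1 had a log2 ratio of 1.30 (0.69 to 1.91), opposite in sign to the Cd209f cluster. Markers of B and plasma cells summed to 316 CPM with Shi-Bi-Man and 4266 CPM with imiquimod alone in the class, with 4 of 10 at 0 with Shi-Bi-Man and 2 of 10 at 0 with imiquimod alone. Of 20 marker lists of other cells, 5 were lower and 11 higher beyond counting error, among the higher ones those of fibroblasts, at 4095 CPM with Shi-Bi-Man and 2287 CPM with imiquimod alone, and of conventional dendritic cells, at 1227 CPM with Shi-Bi-Man and 759 CPM with imiquimod alone. The part of these in the ratios was not tested.

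**Figure D2:**
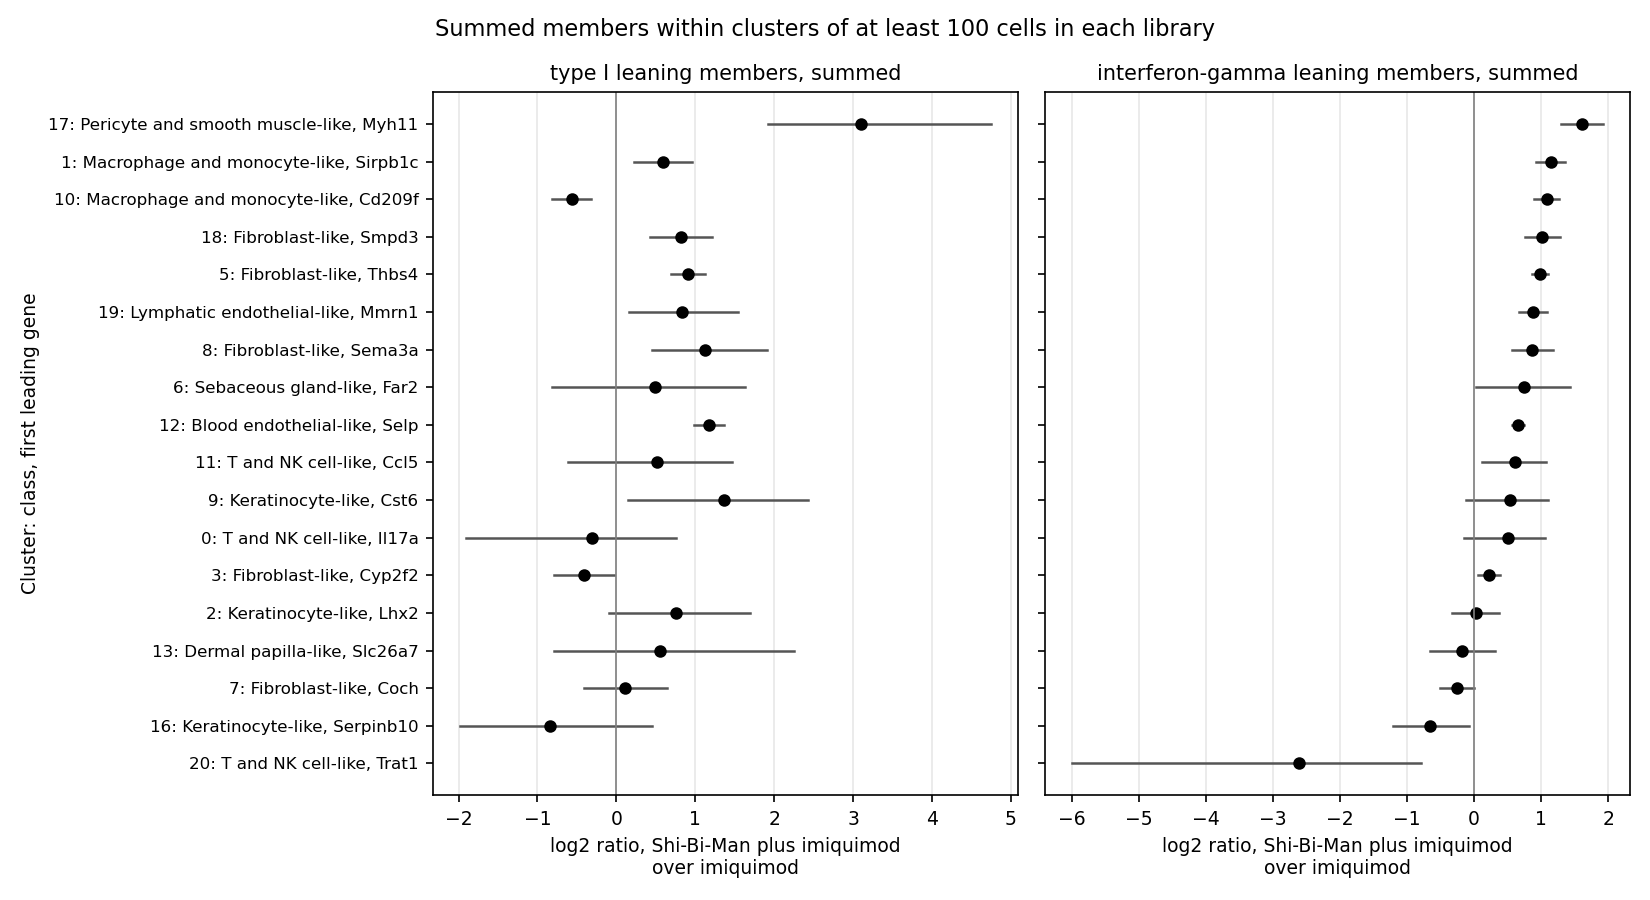
Log2 ratio of summed counts, Shi-Bi-Man plus imiquimod over imiquimod, of the 9 type I leaning genes (left) and the 6 interferon-gamma leaning genes (right) in the 18 clusters with at least 100 cells in each library, named by cell class and leading genes. Points are ratios and lines exact 95% intervals from counting error, and a point is left out where both libraries had 3 counts or fewer. The macrophage cluster led by Cd209f lies at -0.56 on the left and 1.08 on the right.

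T and NK cell-like cells (511 with Shi-Bi-Man and 2520 with imiquimod alone) hold the known source of interferon-gamma, and its gene Ifng was at 157 CPM with Shi-Bi-Man and 39.3 CPM with imiquimod alone there, on 77 counts with Shi-Bi-Man and 121 with imiquimod alone (2.0, 1.56 to 2.42). Over all cells Ifng was at 4.16 CPM with Shi-Bi-Man and 5.21 CPM with imiquimod alone (-0.32, -0.73 to 0.07), so the direction within the class was not that of the whole library. Its 85 counts over all cells with Shi-Bi-Man lay in 34 cells, 1 of which held 10. With imiquimod alone its 148 counts lay in 99 cells, with at most 5 in 1 cell. Intervals that treat such counts as independent may be too narrow. The part of the make-up of the class, given below, in the Ifng ratio was not tested. Of the type I ligands, Ifnk, an epithelial interferon, had 8 counts with Shi-Bi-Man and 13 with imiquimod alone over all cells and Ifnz 0 counts with Shi-Bi-Man and 4 with imiquimod alone, and no other type I ligand had more than 3 counts in a library. A difference in type I ligands was therefore not detectable at this depth. Of 23 members measured in T and NK cell-like cells, 9 were higher and 0 lower by more than 1.5-fold, where 19.3% of all genes measured were higher and 16.1% lower, and the median was 0.36. With the imiquimod cluster mix in both libraries, 5 were higher and 1 lower. The share of all genes under that mix was not computed. Isg15 stood at 118 CPM with Shi-Bi-Man and 54.9 CPM with imiquimod alone (1.11, 0.65 to 1.54) and Iigp1 at 40.7 CPM with Shi-Bi-Man and 13.3 CPM with imiquimod alone (1.63, 0.76 to 2.42). Rtp4, a negative regulator of interferon signalling, had 8 counts with Shi-Bi-Man and 17 with imiquimod alone (1.61, 0.14 to 2.85), and Irf9 had 13 counts with Shi-Bi-Man and 43 with imiquimod alone (0.96, -0.10 to 1.84). The 4 lowest, Oasl2 (-0.55), Zbp1 (-0.52), Stat2 (-0.25) and Irgm1 (-0.20), had intervals that span 0. The interferon-gamma sum was 169 CPM with Shi-Bi-Man and 115 CPM with imiquimod alone (0.56, 0.19 to 0.90) and the type I sum 38.7 CPM with Shi-Bi-Man and 37.3 CPM with imiquimod alone (0.08, -0.73 to 0.76).

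The libraries differed in which lymphocytes they held. The cluster led by Il17a and Il17f made up 41.1% of the class with Shi-Bi-Man and 71.0% with imiquimod alone, and the cluster led by Ccl5, Klrg1 and Ifng made up 35.2% and 24.2% in that order. In the Ccl5 cluster the interferon-gamma sum was 295 CPM with Shi-Bi-Man and 194 CPM with imiquimod alone (0.61, 0.11 to 1.07), and in the Il17a cluster it was 124 CPM with Shi-Bi-Man and 89.2 CPM with imiquimod alone, with an interval that spans 0 (0.50, -0.15 to 1.05). In the cluster led by Trat1 it rested on 2 counts with Shi-Bi-Man and 16 with imiquimod alone (-2.61, -6.05 to -0.80), lower with Shi-Bi-Man. Keratinocyte markers summed to 7965 CPM with Shi-Bi-Man and 4564 CPM with imiquimod alone in the class, and their part in the ratios was not tested.

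Fibroblast-like cells (2259 with Shi-Bi-Man and 2058 with imiquimod alone) held much of the members' counts. Of all type I counts they held 43.7% with Shi-Bi-Man and 30.9% with imiquimod alone, and of all interferon-gamma counts 43.8% with Shi-Bi-Man and 31.3% with imiquimod alone. Taken whole, they differed little between libraries, with a type I sum of 147 CPM with Shi-Bi-Man and 153 CPM with imiquimod alone (-0.06, -0.21 to 0.09) and an interferon-gamma sum of 596 CPM with Shi-Bi-Man and 519 CPM with imiquimod alone (0.20, 0.12 to 0.28). Of 34 measured members, 2 were higher and 4 lower by more than 1.5-fold, where 9.48% of all genes measured were higher and 10.6% lower. Zbp1 was highest, at 37.0 CPM with Shi-Bi-Man and 22.3 CPM with imiquimod alone (0.73, 0.38 to 1.09), followed by Ifit3b (0.64, -0.11 to 1.44), Ifit2 (0.49, 0.04 to 0.95) and Rtp4 (0.45, 0.11 to 0.80). The lowest was Mx1, on 9 counts with Shi-Bi-Man and 15 with imiquimod alone (-0.83, -2.24 to 0.42). Slfn2, a Schlafen protein that keeps T cells quiescent (-0.78, -1.28 to -0.31), and Ifi27l2a, at 109.9 CPM with Shi-Bi-Man and 187 CPM with imiquimod alone (-0.76, -0.92 to -0.61), were lower beyond counting error. Rsad2, the antiviral enzyme viperin, was not (-0.63, -1.42 to 0.13). With both libraries given the cluster mix of the imiquimod library, the type I ratio of the class was 0.71 and the interferon-gamma ratio 0.76. Under that mix 11 members were higher and 0 lower, and Ifi27l2a and Rsad2 were above 0, at 0.13 and 0.28. The share of all genes under that mix was not computed.

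The clusters of fibroblast-like cells differed from the class as a whole. In the cluster led by Thbs4 and Myoc (334 cells with Shi-Bi-Man and 644 with imiquimod alone), the type I sum was 438 CPM with Shi-Bi-Man and 234 CPM with imiquimod alone (0.91, 0.69 to 1.12) and the interferon-gamma sum 1497 CPM with Shi-Bi-Man and 759 CPM with imiquimod alone (0.98, 0.86 to 1.10). For the cluster led by Smpd3 (111 cells with Shi-Bi-Man and 236 with imiquimod alone), the ratios were 0.82 (0.42 to 1.22) and 1.02 (0.75 to 1.28) in the same order of sums, and in that led by Sema3a (606 cells with Shi-Bi-Man and 233 with imiquimod alone) they were 1.12 (0.46 to 1.91) and 0.86 (0.57 to 1.17). Both sums were thus higher with Shi-Bi-Man in these 3 clusters. The cluster led by Cyp2f2 and Saa3 (793 cells with Shi-Bi-Man and 440 with imiquimod alone) had a type I sum that was lower with Shi-Bi-Man, at 68.6 CPM with Shi-Bi-Man and 91.3 CPM with imiquimod alone (-0.41, -0.79 to -0.03), while its interferon-gamma sum was higher (0.22, 0.06 to 0.39). For the Coch cluster (415 cells with Shi-Bi-Man and 505 with imiquimod alone), the type I ratio was 0.11 (-0.41 to 0.64) and the interferon-gamma ratio -0.25 (-0.51 to 0.00). The Thbs4 cluster, at a high level in both libraries, held 14.8% of the class with Shi-Bi-Man and 31.3% with imiquimod alone, and the Sema3a cluster, at a low level, held 26.8% and 11.3% in that order.

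Keratinocyte-like cells (2657 with Shi-Bi-Man and 2190 with imiquimod alone) held little of either group, with a type I sum of 12.1 CPM with Shi-Bi-Man and 8.96 CPM with imiquimod alone (0.43, 0.02 to 0.85) and an interferon-gamma sum of 43.9 CPM with Shi-Bi-Man and 38.4 CPM with imiquimod alone (0.19, -0.01 to 0.40). Of 30 measured members, 4 were higher and 4 lower by more than 1.5-fold, where 14.2% of all genes measured were higher and 12.2% lower, so the members' shares were near the background. The highest were Ifit3, on 21 counts with Shi-Bi-Man and 7 with imiquimod alone (1.53, 0.30 to 3.07), Gbp3 (0.91, -0.18 to 2.14), Iigp1, on 144 counts with Shi-Bi-Man and 84 with imiquimod alone (0.78, 0.39 to 1.19), and Irf7, the factor that amplifies interferon-alpha (0.67, 0.06 to 1.31). The lowest was Slfn2, at 5.43 CPM with Shi-Bi-Man and 14.0 CPM with imiquimod alone (-1.35, -1.85 to -0.89). Ddx58 (-0.75, -1.27 to -0.24), Ifi27l2a (-0.62, -0.92 to -0.32) and Cmpk2, a mitochondrial nucleotide kinase (-0.59, -1.74 to 0.47), followed. The libraries differed in which keratinocytes they held: the cluster led by Mt4 made up 42.0% of the class with Shi-Bi-Man and 3.38% with imiquimod alone, and that led by Krt6b, S100a9 and S100a8 made up 0.489% and 32.1% in that order. With the imiquimod mix in both, the interferon-gamma ratio was -0.21, 9 members were lower, and Iigp1, Ddx58 and Slfn2 had the opposite sign, at -0.11, 0.13 and 0.033. The Krt6b cluster, which that mix weights by its imiquimod counts, had 13 cells with Shi-Bi-Man and 704 with imiquimod alone. No interval was formed for that mix, and the share of all genes under it was not computed. With a mean over cells in place of summed counts, the type I ratio was -0.11, and Gbp3 and Irf7 were at -0.10 and -0.30.

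Dermal papilla-like cells (459 with Shi-Bi-Man and 270 with imiquimod alone) were the one class in which the summed transcription factors were lower with Shi-Bi-Man beyond counting error, at 247 CPM with Shi-Bi-Man and 341 CPM with imiquimod alone (-0.47, -0.80 to -0.13). Of 13 measured members, 0 were higher and 3 lower by more than 1.5-fold, where 31.5% of all genes measured were higher and 13.5% lower, and the median was -0.36 over the members and 0.25 over all genes. Isg15 stood at 30.1 CPM with Shi-Bi-Man and 79.2 CPM with imiquimod alone (-1.39, -2.27 to -0.54) and Irf1 at 149 CPM with Shi-Bi-Man and 229.7 CPM with imiquimod alone (-0.62, -1.05 to -0.20), both lower with Shi-Bi-Man, while Ifi27l2a (-0.67, -1.88 to 0.58) and Irgm1 (-0.53, -1.16 to 0.10) had intervals that span 0. The highest were Ifih1, the RNA sensor MDA5 (0.54), Bst2 (0.35), Rtp4 (0.34) and Trim30a (0.28), all with intervals that span 0. Scaling by TMM or by DESeq2 size factors lowered every ratio of the class by 0.27, and 7 members were then lower by more than 1.5-fold. That shift applies to all genes of the class, and the share of all genes past 1.5-fold under it was not computed. Genes of the response to tissue dissociation summed to 14657 CPM with Shi-Bi-Man and 27365 CPM with imiquimod alone in this class (-0.90, -0.94 to -0.86), the one class of 9 in which they were lower beyond counting error. They were higher beyond counting error in 6 of 9, with ratios up to 0.26 in macrophage-like cells, and their part in the ratios of any class was not tested.

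Sebaceous gland-like cells (253 with Shi-Bi-Man and 684 with imiquimod alone) had an interferon-gamma ratio of 0.74 (0.02 to 1.43), but 1 cell held 9 of the 30 counts with Shi-Bi-Man. Without the cell with most counts in each library, the ratio was 0.29, with a mean over cells it was 1.72, and with 5% free RNA subtracted it was 1.45. The class had 9 measured members, of which 3 were higher and 3 lower by more than 1.5-fold, where 13.9% of all genes measured were higher and 9.33% lower. Iigp1, on 15 counts with Shi-Bi-Man and 12 with imiquimod alone (1.69, 0.51 to 2.93), Irf9, on 17 counts with Shi-Bi-Man and 20 with imiquimod alone (1.15, 0.12 to 2.15), and Irf1 (0.62, -0.01 to 1.21) were the higher ones. Stat2, on 5 counts with Shi-Bi-Man and 41 with imiquimod alone (-1.53, -3.35 to -0.32), Slfn2 (-1.51, -4.94 to 0.27) and Ifih1, on 6 counts with Shi-Bi-Man and 44 with imiquimod alone (-1.39, -3.01 to -0.26), were the lower ones. Bst2 and Trim30a lay at 0.22 and 0.07, with intervals that span 0.

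Across classes, a few genes had one direction in the summed counts. Iigp1 was higher with Shi-Bi-Man beyond counting error in 8 of the 8 classes in which it was measured, and past 1.5-fold in 7. Its ratios ran from 0.37 in fibroblast-like cells to 1.92 in pericyte and smooth muscle-like cells. The imiquimod cluster mix, however, put Iigp1 at -0.11 in keratinocyte-like cells, where 1 cluster had 13 cells with Shi-Bi-Man. Trim30a was above 0 in 9 of 9 classes, beyond counting error in 6 and past 1.5-fold in 1. Irf1 was past 1.5-fold higher in 5 of 9 and lower in 1, the dermal papilla-like class. Gbp3 was above 0 in 6 of 6 classes and beyond counting error in 3, but at -0.10 in keratinocyte-like cells with a mean over cells. Oas1a was above 0 in 0 of 4 classes and Oasl1 in 0 of 3, and each was lower beyond counting error in 1. Within the macrophage class, however, Oasl1 was higher with Shi-Bi-Man in the cluster led by Sirpb1c. Ifi27l2a went against most other members: it was past 1.5-fold lower in 5 of 8 classes and higher in 0. It was lower beyond counting error in 4 of 8, and the imiquimod cluster mix put it above 0 in fibroblast-like cells. Slfn2, which an antisense transcript overlaps over 88.5% of its length, was past 1.5-fold lower in 3 of 7 classes and higher in 1. The higher one was the blood endothelial-like class, at 499.9 CPM with Shi-Bi-Man and 308 CPM with imiquimod alone (0.70, 0.45 to 0.95). Under the imiquimod cluster mix Slfn2 was above 0 in keratinocyte-like cells. Isg15 was past 1.5-fold higher in 3 of 8 classes and lower in 1. Xaf1, Parp9 and Dtx3l stayed within 1.5-fold in every class that measured them, which were 6, 6 and 5.

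**Figure D3:**
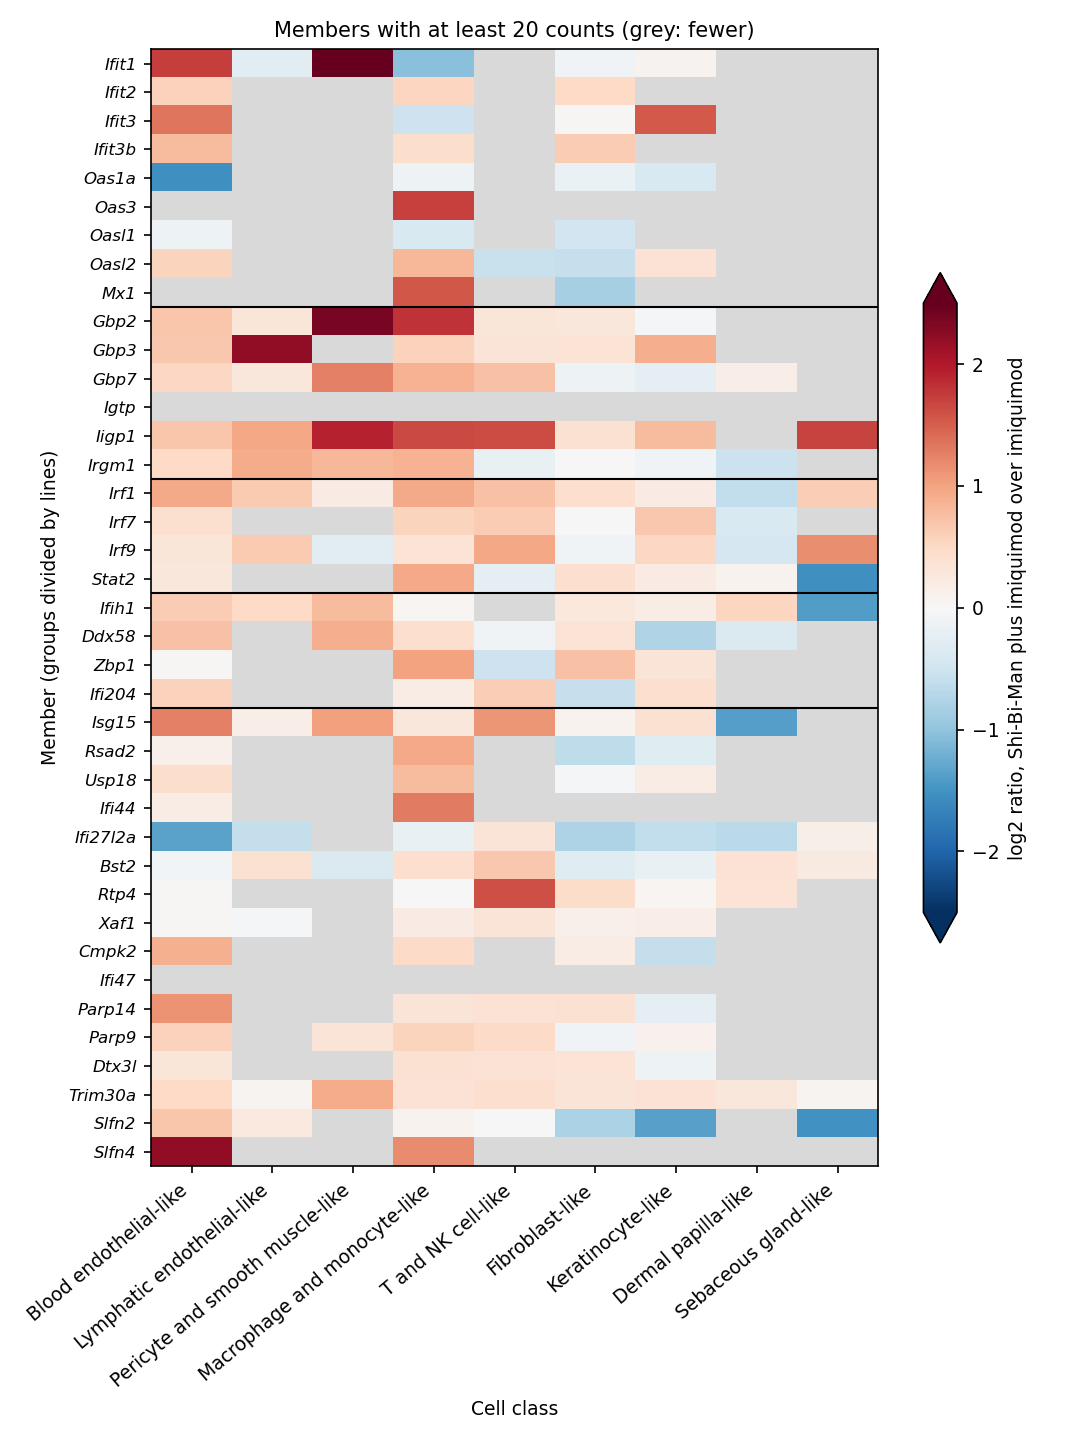
Log2 ratio, Shi-Bi-Man plus imiquimod over imiquimod, of each of the 39 genes (rows, grouped by role and divided by lines) in 9 cell classes (columns), with grey where a gene had fewer than 20 counts over both libraries. Red is higher and blue lower with Shi-Bi-Man plus imiquimod, and colours are capped at the ends of the bar. Iigp1 is red in all 8 classes that measured it, and Ifi27l2a is below 0 in 6 of 8.

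Shares of cells with a count were compared after each cell was thinned to 500 counts, since depth differed between libraries, and no cell was too shallow. At least 1 count of an interferon-gamma leaning gene was found in 75.7% of blood endothelial-like cells with Shi-Bi-Man (69.9 to 80.9) and in 62.9% with imiquimod alone (58.6 to 67.2). In macrophage-like cells the shares were 25.4% with Shi-Bi-Man and 12.5% with imiquimod alone. In sebaceous gland-like cells, the lowest class, they were 2.37% with Shi-Bi-Man and 1.02% with imiquimod alone. The blood endothelial and macrophage shares were thus above those of the sebaceous class, and both were higher with Shi-Bi-Man. Without thinning, the interferon-gamma leaning shares of blood endothelial-like cells were 89.5% with Shi-Bi-Man and 85.3% with imiquimod alone, at medians of 1252 with Shi-Bi-Man and 1864 with imiquimod alone, and those of sebaceous gland-like cells 7.11% with Shi-Bi-Man and 6.14% with imiquimod alone, at medians of 3144 with Shi-Bi-Man and 1985 with imiquimod alone.

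At least 1 count of a type I leaning gene was found in 25.1% with Shi-Bi-Man and 13.7% with imiquimod alone of blood endothelial-like cells, in 10.3% with Shi-Bi-Man and 9.90% with imiquimod alone of macrophage-like cells, and in 1.19% with Shi-Bi-Man and 0.585% with imiquimod alone of sebaceous gland-like cells, all after thinning. The type I leaning share was thus higher with Shi-Bi-Man in endothelium and about equal in macrophage-like cells, as the sums were. Cells with 3 or more of the 39 genes made up 55.1% of blood endothelial-like cells with Shi-Bi-Man (48.6 to 61.4) and 37.8% with imiquimod alone (33.6 to 42.3). In macrophage-like cells they made up 18.7% with Shi-Bi-Man and 13.3% with imiquimod alone. Among blood endothelial-like cells with a count of an interferon-gamma leaning gene, 29.4% with Shi-Bi-Man and 19.9% with imiquimod alone also had a type I leaning one, and among those without, 11.7% with Shi-Bi-Man and 3.23% with imiquimod alone did. All cells were thinned to the same depth for this, and the members share a library.

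**Figure D4:**
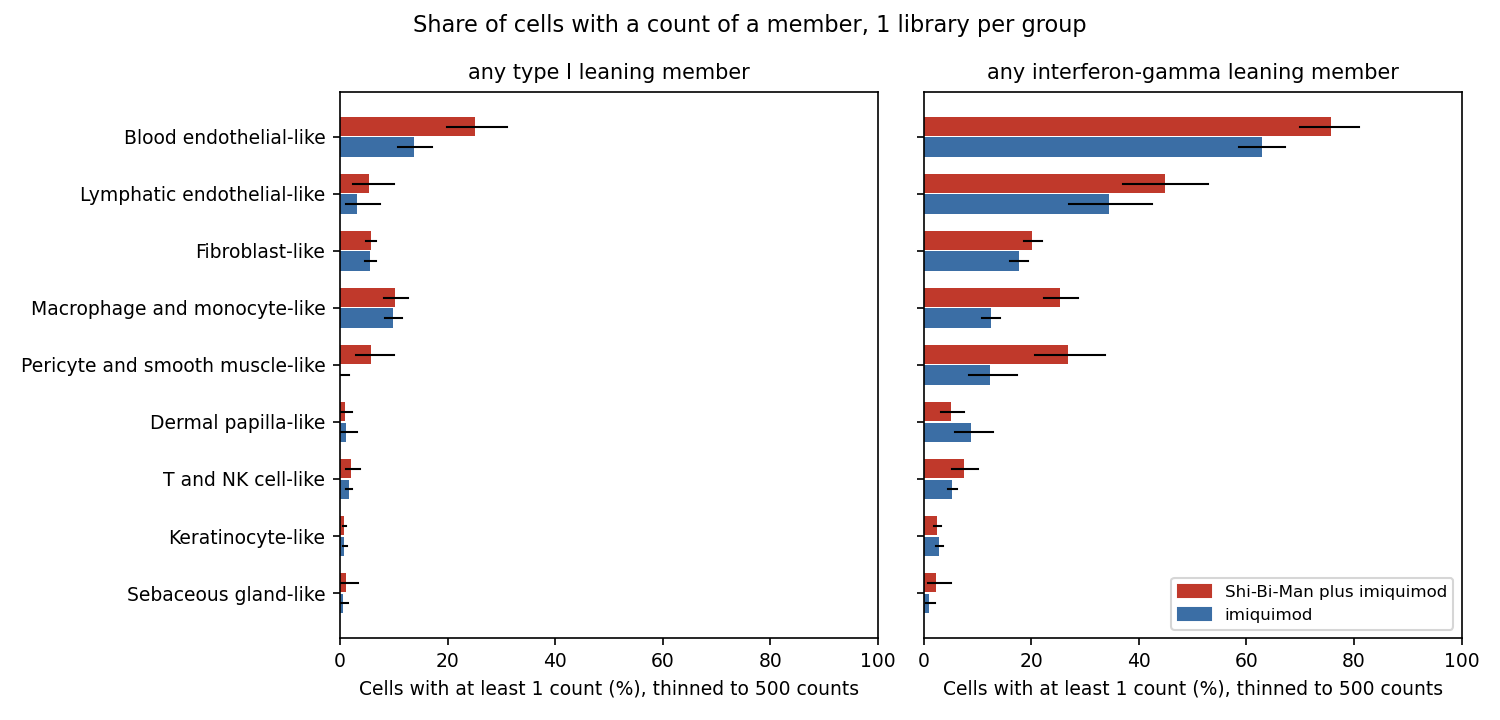
Percent of cells with at least 1 count of any type I leaning gene (left) or any interferon-gamma leaning gene (right) in 9 cell classes, each cell thinned to 500 counts, 1 library per group. Bars are shares and lines Clopper-Pearson 95% intervals, which cover counting error only. In macrophage-like cells the interferon-gamma leaning shares are 25.4% with Shi-Bi-Man and 12.5% with imiquimod alone, and the type I leaning ones 10.3% with Shi-Bi-Man and 9.90% with imiquimod alone.

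Other genes of the pathway were read from lists of 95 genes. Of 42 other interferon response genes, 18 of 27 measured were higher by more than 1.5-fold and 1 lower in blood endothelial-like cells, with a median of 0.80, where 13.6% of all genes measured were higher and 18.7% lower. In macrophage-like cells 19 of 36 measured were higher and 0 lower, and their median was 0.63, where 13.8% of all genes measured were higher and 11.7% lower. Lymphatic endothelial-like cells had 7 of 13 higher and 1 lower, where 18.3% of all genes measured were higher and 13.3% lower. Pericyte and smooth muscle-like cells had 5 of 12 higher and 1 lower (all genes 14.7% higher and 16.2% lower). T and NK cell-like cells had 8 of 24 higher and 2 lower (all genes 19.3% higher and 16.1% lower). Keratinocyte-like cells had 6 of 26 higher and 4 lower (all genes 14.2% higher and 12.2% lower). Fibroblast-like cells had 4 of 30 higher and 3 lower (all genes 9.48% higher and 10.6% lower). Sebaceous gland-like cells had 3 of 14 higher and 4 lower (all genes 13.9% higher and 9.33% lower). Dermal papilla-like cells had 1 of 8 higher and 2 lower (all genes 31.5% higher and 13.5% lower). Over all cells 3 of 39 were higher and 6 lower, where 15% of all genes measured were higher and 13.7% lower. In blood endothelial-like cells the chemokine Cxcl9, which draws T cells, stood at 303 CPM with Shi-Bi-Man and 101 CPM with imiquimod alone (1.59, 1.21 to 1.96), the GTPase Tgtp1 at 51.0 CPM with Shi-Bi-Man and 15.9 CPM with imiquimod alone (1.68, 0.72 to 2.66) and the p200 family gene Ifi203 at 509.6 CPM with Shi-Bi-Man and 216 CPM with imiquimod alone (1.24, 0.97 to 1.51). In macrophage-like cells the guanylate-binding protein gene Gbp2b had 30 counts with Shi-Bi-Man and 4 with imiquimod alone (4.07, 2.71 to 6.18), and the GTPase genes Tgtp2 and Irgm2 had log2 ratios of 2.04 (1.51 to 2.59) and 1.72 (1.04 to 2.42). In pericyte and smooth muscle-like cells Cxcl10, a chemokine of the same receptor as Cxcl9, stood at 196 CPM with Shi-Bi-Man and 55.6 CPM with imiquimod alone (1.80, 1.07 to 2.60). In blood endothelial-like, macrophage-like and pericyte and smooth muscle-like cells the interferon-gamma leaning sum was also higher with Shi-Bi-Man.

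Of the genes of receptor signalling and feedback, the feedback inhibitor Socs3 stood at 1786 CPM with Shi-Bi-Man and 810.1 CPM with imiquimod alone in blood endothelial-like cells (1.14, 1.0 to 1.28). Its log2 ratio was 0.88 (0.64 to 1.12) in lymphatic endothelial-like cells and -0.50 (-0.59 to -0.40) in keratinocyte-like cells, where it was lower with Shi-Bi-Man. Of the receptors, 0 of 6 were higher and 2 lower by more than 1.5-fold in keratinocyte-like cells, namely Ifnar2 (-1.13, -1.94 to -0.39) and Il10rb (-0.97, -1.56 to -0.41), where 14.2% of all genes measured were higher and 12.2% lower. In fibroblast-like cells 0 of 5 passed 1.5-fold in either direction, where 9.48% of all genes measured were higher and 10.6% lower. Ifngr1, the chain that binds interferon-gamma, stood at 116 CPM with Shi-Bi-Man and 160.0 CPM with imiquimod alone in these cells (-0.46, -0.62 to -0.30). In blood endothelial-like cells 1 of 5 was higher and 2 lower, where 13.6% of all genes measured were higher and 18.7% lower. Ifnar2, on 12 counts with Shi-Bi-Man and 16 with imiquimod alone (1.14, -0.09 to 2.30), was above 0. Below 0 were Ifnar1, on 10 counts with Shi-Bi-Man and 62 with imiquimod alone (-1.03, -2.22 to -0.12), and Ifngr2, on 8 counts with Shi-Bi-Man and 39 with imiquimod alone (-0.68, -2.05 to 0.37). Of the genes that induce interferon, 3 of 15 measured were higher and 1 lower in macrophage-like cells and their median was 0.03, where 13.8% of all genes measured were higher and 11.7% lower. Among the higher was Tlr7, the receptor of imiquimod, at 77.7 CPM with Shi-Bi-Man and 42.2 CPM with imiquimod alone (0.88, 0.45 to 1.30).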

How the data were processed

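Samples were grouped by the treatment label, 1 library for Shi-Bi-Man plus imiquimod and 1 for imiquimod. The deposited matrices give, per the file headers, whole-number counts of each gene in each cell barcode, and every barcode has at least 500. The submitters' processing notes name the builds mm10 and GRCm38. Which aligner and counting program were used, how cells were called and whether molecular identifiers were collapsed is not given in the sources used here, so intervals treat deposited counts as independent molecules.

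The 39 members, the marker genes, the pathway lists and the rules were chosen with earlier results of these data known. All members are named by the list, and in each class the 4 highest and 4 lowest ratios among measured members are described. From a pathway list, at most the 3 genes with the largest ratio in a class are named, with any interferon ligand above 3 counts. Members named beyond this, such as those compared between clusters, were chosen after their values were seen. Cgas stood for a listed older symbol. The counts over the list of receptor signalling and feedback genes are not reported here.

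Barcodes with fewer than 200 genes or over 20% mitochondrial counts were dropped, as were doublets called by Scrublet: 83 (1.04%) with Shi-Bi-Man plus imiquimod and 0 with imiquimod, so that in effect no doublets were removed from that library. Scanpy 1.11.5 clustered both libraries together on counts scaled to 10000, with 134 member and pathway genes held out, 2000 variable genes, 30 components, 15 neighbours and Leiden resolution 1. Naming a class took 3 markers at 2-fold over the other cells and in 10% of the cluster. Counts were summed per class and expressed as counts per 1000000 (CPM) with exact Poisson intervals. Ratios were formed after adding 0.5 counts, with exact conditional binomial intervals, and none was formed where both libraries had 3 counts or fewer. A gene counted as measured at 20 counts over both libraries. The code was tested on simulated data. Alternatives covered stricter cell filters (10% mitochondrial, 500 genes), doublets kept, resolutions 0.5 and 2, interferon genes kept in the clustering, TMM (edgeR 4.0.16) and DESeq2 1.42.0 scaling, class totals that omit mitochondrial and ribosomal protein genes, per-cell means, 5% free RNA subtracted, the imiquimod cluster mix, a minimum of 50 counts, 1 CPM added, and shares without thinning or thinned to 1000. Positions are from GENCODE vM21.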

Additional observations from a re-analysis of the deposited data

How the results depend on the processing

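Of the sums and counts of members recomputed under the alternatives above, 442 values stayed within counting error (or 1.5 times, for counts) of those reported and 44 moved further; of single members named, 967 stayed, 73 moved and 7 changed sign. The cause was not tested except where the construction shows it. Blood endothelial, lymphatic endothelial, pericyte, dermal papilla and sebaceous cells each formed 1 cluster, so the imiquimod cluster mix could not move their values. Those values are counted among the ones that stayed, and the mix gave no check on the make-up of these classes. Shares of all genes were not computed under any alternative. The imiquimod cluster mix in both libraries moved the fibroblast ratios to 0.71 (type I) and 0.76 (interferon-gamma), the fibroblast counts to 11 higher and 0 lower, the keratinocyte interferon-gamma ratio to -0.21 and its count lower to 9, the T and NK counts to 5 higher and 1 lower, and the macrophage count lower to 2. It turned Iigp1 (-0.11), Ddx58 (0.13) and Slfn2 (0.033) in keratinocytes and Rsad2 (0.28) and Ifi27l2a (0.13) in fibroblasts. Means over cells gave type I ratios of -0.11 (keratinocyte) and 0.90 (blood endothelial), interferon-gamma ratios of 0.52 (blood endothelial) and 1.72 (sebaceous), counts higher of 2 (keratinocyte), 3 (lymphatic) and 1 (dermal papilla), and counts lower of 2 (macrophage, T and NK) and 0 (lymphatic); they turned Gbp3 (-0.10) and Irf7 (-0.30) in keratinocytes. Subtracting 5% free RNA gave 1.45 for the sebaceous interferon-gamma ratio.

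A minimum of 50 counts, which tests fewer genes, left 9 higher in macrophage, 2 in keratinocyte, 3 in lymphatic, 5 in pericyte and 1 in sebaceous cells, and 1 lower in blood endothelial and 1 in sebaceous cells. Adding 1 CPM gave 2 higher in keratinocyte, 1 higher in fibroblast and 1 lower in T and NK cells. At most 10% mitochondrial counts gave 1 higher in fibroblast, 1 lower in T and NK, 0 lower in lymphatic and 5 lower in dermal papilla cells. At least 500 genes gave 1 higher in dermal papilla, 1 lower in T and NK and 0 lower in lymphatic cells. Doublets kept gave 1 higher in dermal papilla cells; resolution 0.5 gave 1 higher in dermal papilla and 2 lower in keratinocyte cells, and resolution 2 gave 2 lower in macrophages. Interferon genes kept in the clustering gave 0 lower in lymphatic cells. TMM and DESeq2 scaling each gave 7 lower in dermal papilla cells. Leaving out the cell with most counts in each library, chosen after seeing the data, kept every sum within counting error of that reported.

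No paired analysis was possible because each group held 1 library. The spread between animals is unknown, and a ratio beyond counting error was not set against it. Depth limits members under 20 counts in a class, the type I sums of dermal papilla, sebaceous and pericyte cells, and the type I ligands.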

Other observations

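Classes with fewer than 100 cells in a library were not compared, and their summed counts are given here. In Schwann cell and glia-like cells, 35 with Shi-Bi-Man and 72 with imiquimod alone, the interferon-gamma leaning genes had 24 counts with Shi-Bi-Man and 14 with imiquimod alone, or 800.1 CPM and 218 CPM in that order. In Langerhans cell-like cells, the antigen-presenting cells of the epidermis, they had 21 counts in 69 cells with Shi-Bi-Man and 88 counts in 601 cells with imiquimod alone, and 1 cell held 19 of the 21. The type I leaning genes of Langerhans cell-like cells had 7 counts with Shi-Bi-Man and 61 with imiquimod alone. Mast cell-like cells had 6 interferon-gamma leaning counts with Shi-Bi-Man and 14 with imiquimod alone, melanocyte-like cells had 35 with Shi-Bi-Man and 19 with imiquimod alone, and hair matrix and shaft-like cells had 17 with Shi-Bi-Man and 5 with imiquimod alone. Type I leaning counts were 0 with Shi-Bi-Man and 5 with imiquimod alone in mast cell-like cells, 4 with Shi-Bi-Man and 5 with imiquimod alone in melanocyte-like cells, 13 with Shi-Bi-Man and 0 with imiquimod alone in hair matrix and shaft-like cells, and 3 with Shi-Bi-Man and 2 with imiquimod alone in Schwann cell and glia-like cells.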
